A study of Homo sapiens with 5 samples.

Results

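The segment described here is the MYC region of chromosome 8, from 125000001 to 131500000 on hg19, seen as 13 bins of 500 kb out of 6083 bins on the autosomes and chromosome X. Each bin is named by its start. The bins at 126.0, 126.5, 127.0, 128.0, 128.5, 130.0 and 130.5 Mb are called raised, because they stood out by the number of contacts they held in all 3 matrices of the study. The other 6 bins, at 125.0, 125.5, 127.5, 129.0, 129.5 and 131.0 Mb, lie between and beside them and are called unraised. The raised bins were chosen on coverage, which is the number of contacts of a bin, so their coverage is given as a description and supports nothing.

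MYC encodes a transcription factor that drives growth and division, and PVT1 beside it is a long noncoding RNA gene that is often amplified together with it. HL60, a long-established cell line from a human promyelocytic leukemia, is known for carrying extra copies of MYC. Amplified DNA can sit outside the chromosomes as small circles or be inserted into a chromosome, and these forms differ in which DNA lies beside the copies. Hi-C crosslinks and ligates DNA that lies close together and counts the joined pairs, so every additional copy of a stretch of DNA adds contacts, and the neighbours of the copies show up as partners.

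The study measured chromosome contacts by in-solution Hi-C with HindIII in HL60 cells left untreated, given retinoic acid (ATRA, an inducer of granulocyte-like maturation) or given the phorbol ester TPA (an inducer of macrophage-like maturation). Doses and times were not used here, since no label gives them. In all, the 5 libraries were deposited as 3 matrices, with 2 untreated libraries pooled, 1 ATRA library and 2 TPA libraries pooled. Each condition is therefore 1 measurement with no spread between replicates, no p-value is given, and library and treatment cannot be told apart. The matrices held 10628045, 9632300 and 10423501 contacts in untreated, ATRA and TPA cells, and a median bin had 3461, 3272 and 3466. Contacts between chromosomes made up 61.0%, 68.5% and 63.7% of these totals. All intervals are exact 95% intervals for counting error only. Read pairs may not be independent molecules, so the true error may be wider. Where 3 values follow each other, they are for untreated, ATRA and TPA cells in that order.

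The 8 genes named for the segment lie in the order NSMCE2, TRIB1, FAM84B, POU5F1B, MYC, PVT1, CCDC26 and GSDMC in the RefSeq gene table, which matched 8 of 8 symbols and calls FAM84B by its newer symbol LRATD2. NSMCE2 encodes a SUMO ligase of the SMC5/6 complex that acts in DNA repair, TRIB1 encodes a pseudokinase that directs the degradation of C/EBPα, and POU5F1B is a retrogene copy of POU5F1. CCDC26 is a long noncoding RNA gene, and GSDMC encodes a member of the gasdermin family of pore-forming proteins. By the list that came with the choice of bins, POU5F1B falls in the bin at 128.0 Mb, MYC and PVT1 in the bin at 128.5 Mb, and CCDC26 and GSDMC in the bins at 130.0 and 130.5 Mb. The RefSeq table is on another genome build than the matrices, so NSMCE2, TRIB1 and FAM84B were not assigned to single bins. Gene ends were not placed on hg19 either, so a gene such as PVT1 may reach beyond the bin listed for it. A bin of this size holds more than 1 gene or regulatory element, and no value below can be given to a single gene.

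The raised bins differed among themselves by about the same pattern in every matrix. Coverage is given as a multiple of the median bin. The bin with MYC and PVT1 was the lowest of the 7, with 18403, 17893 and 19358 contacts, or 5.32 (5.24 to 5.39), 5.47 (5.39 to 5.55) and 5.59 (5.51 to 5.66) times the median. The bin at 130.0 Mb, at the start of the CCDC26 and GSDMC stretch, was the highest, with 54499, 53006 and 52701 contacts, or 15.7, 16.2 and 15.2 times. It was the highest bin of the whole genome in each matrix. More copies of a bin, copies of only a part of it and more contacts per copy cannot be told apart in these counts, which are not normalized. The MYC bin thus carried the weakest signal of the raised bins and not the peak. How the signal spreads within its 500 kb was not resolved, so this is no value for MYC itself.

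The other raised bins lay between these ends. Bin 126.0 Mb stood at 11.2, 10.0 and 11.5 times the median, bin 126.5 at 11.6, 11.5 and 11.8, and bin 127.0 at 9.72, 10.0 and 9.59. The POU5F1B bin at 128.0 Mb stood at 10.0, 10.3 and 9.89 times, and bin 130.5 at 7.92, 7.99 and 8.10. Of these 5 bins, 126.0 differed most between matrices, and it was lowest in ATRA. The median of the 7 was 10.0, 10.0 and 9.89. In each matrix the raised bins made up 0.115% of all bins and held 1.22%, 1.25% and 1.24% of all bin ends, where a contact has an end in each of its bins.

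The unraised bins had near-ordinary coverage although raised bins flanked them directly. Bin 127.5 Mb, between raised bins on both sides, stood at 0.966, 0.961 and 0.988 times the median. Bin 129.5, beside the highest bin of the genome, stood at 0.956, 0.993 and 0.949, and bin 129.0, beside the MYC and PVT1 bin, at 1.22, 1.22 and 1.26. At the outer ends, bin 125.0 had 1.23, 1.22 and 1.19, bin 125.5 had 1.41, 1.41 and 1.45, and bin 131.0 had 1.44, 1.31 and 1.38. The lowest raised bin was therefore at 5.32, 5.47 and 5.59 and the highest unraised bin at 1.44, 1.41 and 1.45, with no bin of the segment in between. Genome-wide, 8 bins exceeded 2.5 times the median in all 3 matrices, which is 0.14% of the 5725 bins compared, and 7 of the 8 were these, as the choice of bins fixes. In the single matrices 0.192%, 0.157% and 0.14% of bins passed that level. The remaining bin was on chromosome 6 at 168.5 Mb, at 2.60 times in the summed matrix.

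**Figure D1:**
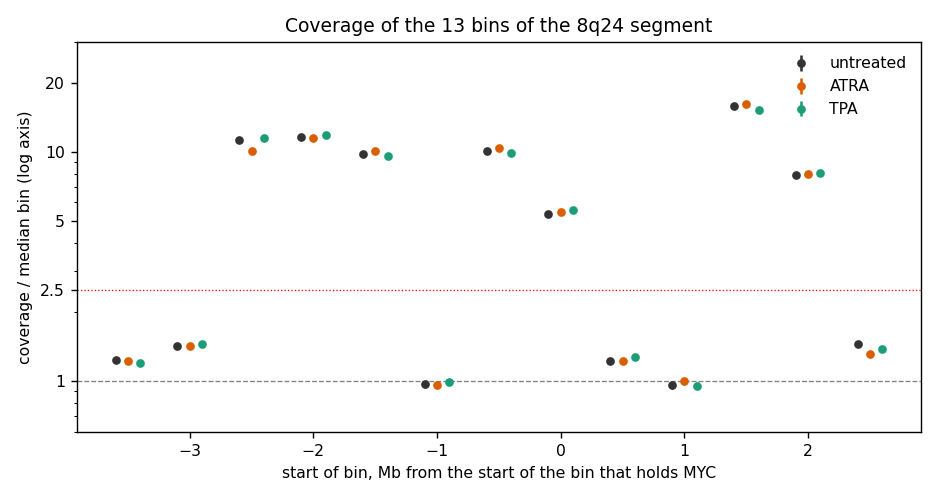
Coverage of the 13 bins as a multiple of the median bin (log axis) against the start of the bin, in Mb from the start of the MYC bin; 1 point per matrix with its 95% exact Poisson interval, which is mostly smaller than the point. The 7 raised bins lie between 5.32 and 16.2, above the dotted line at 2.5, and the 6 unraised bins between 0.949 and 1.45, close to the dashed line at 1.

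The raised bins held many contacts with each other, and the counts showed no steady fall with distance. Other raised bins took 20.2%, 15.8% and 17.8% of all contacts of the raised bins, and contacts within a single bin 4.12%, 3.37% and 4.01%. The 21 pairs of raised bins shared 25021, 18471 and 22092 contacts, and the single pairs ranged from 471 to 2326 in untreated, 333 to 1841 in ATRA and 416 to 2316 in TPA cells. Elsewhere on chromosome 8, bins 0.5 Mb apart shared 107.6 contacts on average in untreated cells and bins 4.5 Mb apart shared 8.33. Raised bins 0.5 Mb apart shared 1430.5 on average over 4 pairs, and the pair 4.5 Mb apart, 126.0 with 130.5 Mb, shared 1638. Contacts between raised bins therefore did not fall over a span in which contacts elsewhere on the chromosome fell steeply.

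Several distant pairs shared more contacts than nearer ones. Bin 126.0 shared 1960, 1614 and 1757 contacts with the POU5F1B bin at 128.0 Mb, across the unraised bin 127.5, and 981, 505 and 661 with bin 127.0, which is nearer and lies on the same side of 127.5. With bin 130.0 Mb it shared 2107, 1433 and 1595. Bin 127.0 shared 716, 425 and 599 contacts with 128.0 but 1332, 1022 and 1344 with 130.0, which lies farther away. The adjacent pair with the fewest contacts was POU5F1B with MYC, 128.0 with 128.5 Mb, at 486, 333 and 416.

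The MYC and PVT1 bin, which had the lowest coverage, also had the fewest contacts with the other raised bins. Its counts in untreated cells were 567 with 126.0, 496 with 126.5, 471 with 127.0, 486 with 128.0, 1143 with 130.0 and 586 with 130.5 Mb. After division by the between-chromosome coverage of both bins, its highest raised partner was 130.5 Mb in untreated and ATRA cells and 130.0 Mb in TPA cells, with the other of these next in every matrix. These 2 bins carry CCDC26 and GSDMC. Across its 6 partners the same measure differed by 1.82, 1.75 and 1.62 times from highest to lowest, the lowest being 126.5, 127.0 and 128.0 Mb in turn.

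On this measure the raised bins did not contact each other evenly. Bin 130.5 had its highest value with 126.0, at the far end of the segment, in all 3 matrices, 2.99, 3.18 and 2.72 times its lowest, which was with 127.0 each time. The POU5F1B bin at 128.0 was also highest with 126.0 and lowest with 127.0 in all 3, a difference of 2.78, 4.45 and 2.76 times. Bin 127.0 was highest with its neighbour 126.5 in all 3, and bin 126.5 with its neighbour 126.0. The order of partners was thus not the order along the chromosome for 130.5 and 128.0, while it began with an adjacent bin for 127.0 and 126.5.

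**Figure D2:**
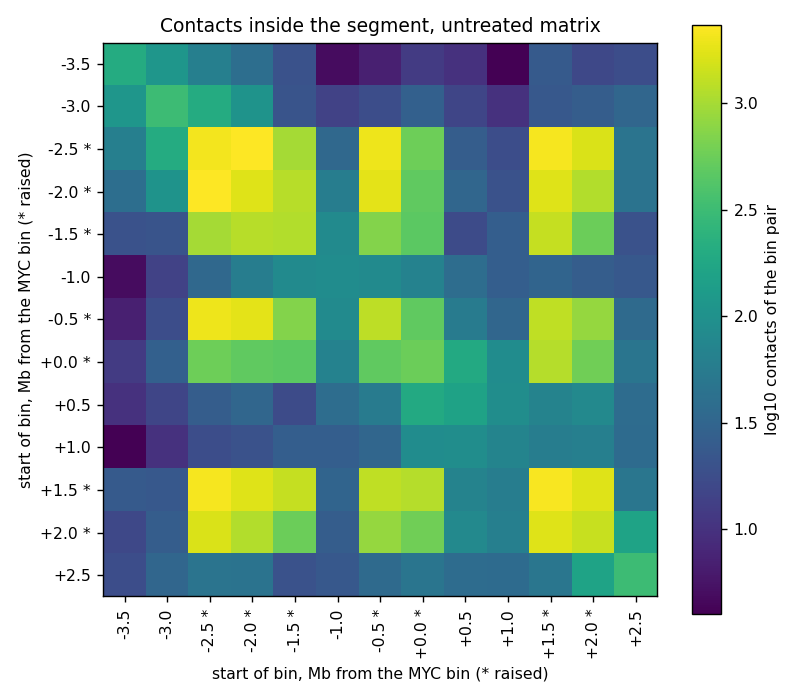
Contacts of every pair of the 13 bins in the untreated matrix, as log10 of the contact count, with bins placed by their start in Mb from the MYC bin and raised bins marked by a star. Raised bins form bright blocks that recur far from the diagonal, up to 2326 contacts, and the unraised rows cut dark lines through them.

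Against the mean of the other chromosome 8 bins at the same distance, raised pairs held 30.7 (30.3 to 31.1), 35.4 (34.9 to 35.9) and 33.5 (33.1 to 33.9) times as many contacts. All 21 pairs were above 2.5 times that mean in each matrix, compared with 2.87%, 4.03% and 2.8% of the pairs of the rest of chromosome 8 at like distances. Because contacts are part of the coverage that chose these bins, this count is a description. When the expectation also took in the coverage of both bins, the sums came to 0.348 (0.343 to 0.352), 0.403 (0.397 to 0.409) and 0.375 (0.370 to 0.380) times expected, below 1. The sign of the departure from expectation therefore depended on whether coverage was divided out. Single pairs ran on this second scale from 0.0990 for 128.0 with 128.5 to 2.42 for 126.0 with 130.5 Mb in untreated cells.

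Contacts of raised with unraised bins were far fewer than those between raised bins and moderately above the mean of ordinary pairs. The 42 such pairs shared 2175, 1653 and 1966 contacts, 1.39 (1.34 to 1.45), 1.65 (1.57 to 1.74) and 1.56 (1.49 to 1.63) times the mean at their distance, although each pair held a bin with several times the usual coverage. After division by coverage as well they came to 0.135, 0.162 and 0.149. Of the 42 pairs, 8, 12 and 9 exceeded 2.5 times the mean at their distance, a larger share than the 2.87%, 4.03% and 2.8% among pairs of the rest of chromosome 8, which were counted up to 4.5 Mb apart. The excess was uneven over distance, at 1.21 times the mean for pairs 0.5 Mb apart and 4.03 times for the 3 pairs 5.0 Mb apart in untreated cells. The 15 pairs of unraised bins shared 476, 369 and 428 contacts, which was 0.909 (0.829 to 0.994), 1.08 (0.977 to 1.20) and 0.951 (0.863 to 1.05) times the expectation from distance and coverage.

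Counts across the 6 junctions of raised with unraised bins lay in or near the range of ordinary neighbours. Neighbouring bins on the rest of chromosome 8 shared a median of 84, 47 and 59.5 contacts, with a 5th to 95th percentile of 40 to 235.5 in untreated cells and a maximum of 368. Across the junction of 127.0 with the unraised 127.5 there were 85, 40 and 72 contacts, and across 127.5 with the POU5F1B bin 85, 61 and 61. Those counts sat near the median of ordinary neighbours, although raised neighbours elsewhere in the segment shared 486 to 2326 in untreated cells. The junction below the highest bin, 129.5 with 130.0 Mb, held 60, 54 and 54 contacts. The other 3 junctions were higher, with 199, 134 and 172 contacts for 125.5 with 126.0, 191, 168 and 209 for the MYC and PVT1 bin with 129.0, and 161, 116 and 106 for 130.5 with 131.0. In untreated cells these stayed below the 95th percentile of ordinary neighbours, whereas 128.5 with 129.0 passed it in ATRA and TPA cells (146.5 and 167.25) and 125.5 with 126.0 passed it in TPA cells.

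The unraised bins at the 2 ends of the segment, beyond the raised bins, were in contact with each other. Bins 125.5 and 131.0 Mb, 5.5 Mb apart, shared 33, 27 and 46 contacts, 4.75 (3.27 to 6.67), 4.71 (3.10 to 6.85) and 5.30 (3.88 to 7.07) times the mean at their distance. Bins 125.0 and 131.0, 6.0 Mb apart, shared 18, 23 and 23, or 2.89, 4.29 and 2.98 times. Both pairs exceeded 2.5 times in every matrix, and no other unraised pair did so in more than 1. These pairs were singled out after their values were seen.

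**Figure D3:**
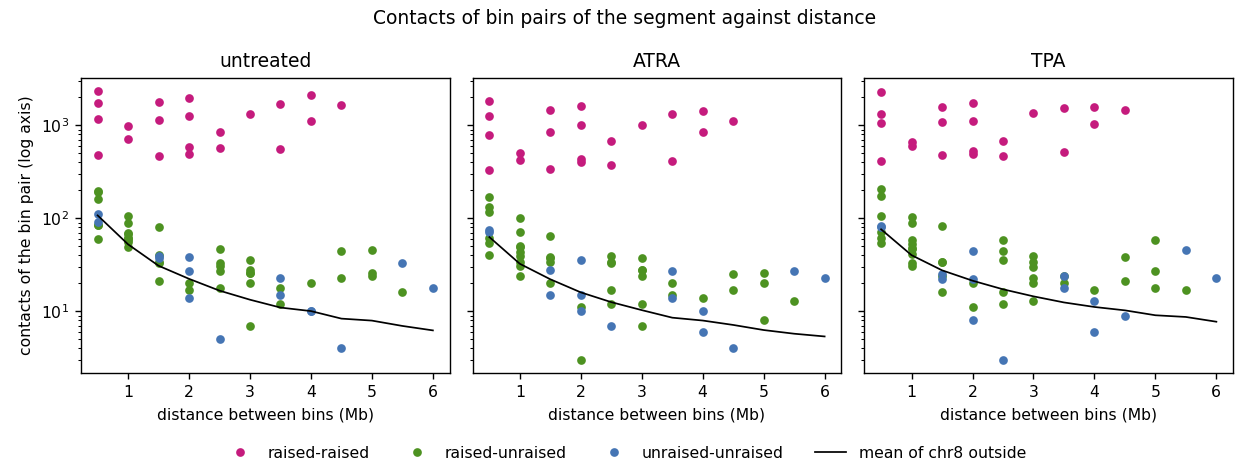
Contacts of each pair of bins of the segment (log axis) against the distance between the bins in Mb, 1 panel per matrix; the black line is the mean of the pairs of chromosome 8 outside the segment. Raised pairs stay between 333 and 2326 contacts at all distances, while raised-unraised and unraised pairs are far fewer and scatter around the line.

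With the rest of chromosome 8 the raised bins had few contacts for their coverage. These contacts made up 5.15%, 5.21% and 5.24% of all contacts of the raised bins, against 22.3%, 19.3% and 23.1% of those of the unraised bins between them. Relative to the expectation from distance and coverage, raised bins reached 0.258 (0.253 to 0.262), 0.291 (0.286 to 0.296) and 0.242 (0.238 to 0.246). Unraised bins of the same stretch reached 1.02, 1.02 and 1.01. Since coverage chose the raised bins, division by it lowers their ratio by construction, and the contrast is a description. In undivided counts the raised bins held more contacts with the rest of the chromosome, 1820, 1740 and 1861 per bin against 927, 748 and 963 per unraised bin.

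This ratio, in which distance is divided out, was lowest close by. In untreated cells the raised bins reached 0.135 of expected within 5 Mb, 0.200 at 5 to 20 Mb, 0.254 at 20 to 50 Mb and 0.416 beyond 50 Mb. The same 4 classes gave 0.140, 0.221, 0.286 and 0.462 in ATRA cells and 0.143, 0.197, 0.234 and 0.374 in TPA cells. Within the raised set the MYC and PVT1 bin had the highest value over all distances, at 0.451 (0.429 to 0.474), 0.410 (0.387 to 0.433) and 0.367 (0.349 to 0.386), when the other 6 lay at 0.211 to 0.263 in untreated, 0.255 to 0.302 in ATRA and 0.196 to 0.269 in TPA cells. Its count of 1579 contacts with the rest of the chromosome in untreated cells was close to the 1694 of bin 127.0 and the 1727 of the POU5F1B bin, whose coverage was higher.

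A second scale sets chromosome 8 beside the other chromosomes. Here the expectation came from the contacts that bins make between chromosomes. On it the raised bins held 1.45, 1.30 and 1.42 times the expected contacts with the rest of their own chromosome, and the unraised bins 7.22, 5.44 and 7.42 times. For the raised bins, chromosome 8 as a whole thus stood above each of the 19 autosomes other than 6 and 11. Those 19 lay at 0.605 to 0.924 in untreated cells. Chromosome 8 stood below chromosomes 6 and 11, whose values follow. Along chromosome 8 the ratio was uneven, at only 0.910, 0.892 and 0.864 from 0 to 5 Mb. It was 2.78, 2.44 and 3.49 from 120 to 125 Mb. From 130 to 135 Mb, outside the segment, it was 3.93, 2.81 and 3.93.

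Most contacts of the raised bins were with other chromosomes, as for other bins of the genome. The share was 65.7%, 73.3% and 69.1% for the MYC and PVT1 bin and highest of the raised bins for 127.0, at 75.5%, 80.3% and 76.1%. It was lowest of them for 126.0, at 64.2%, 68.4% and 67.6%, against a median bin at 64.7%, 71.3% and 66.4%. Bin 126.0 was thus below the median bin in untreated and ATRA cells.

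Chromosomes 6 and 11 stood apart from the other autosomes as partners of the raised bins. Chromosome 6 took 33925, 30622 and 34457 contacts, 13.7%, 13.1% and 13.9% of all contacts of the raised bins and 2.70 (2.67 to 2.72), 2.29 (2.27 to 2.32) and 2.61 (2.58 to 2.64) times expected. Chromosome 11 took 14644, 12974 and 15400, which is 1.75 (1.72 to 1.78), 1.51 (1.49 to 1.54) and 1.77 (1.74 to 1.79) times expected. Of the 21 other autosomes these 2 were above 1 in each matrix. Chromosome 2 came next with 0.924, 0.934 and 0.929.

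The lowest autosomes were small ones. In the summed matrix chromosome 22 stood at 0.659, chromosome 19 at 0.686 and chromosome 21 at 0.701. The excess of chromosomes 6 and 11 raises the expectation for all the others. With an expectation taken from the remaining 19 autosomes, which was chosen after seeing the data, chromosome 6 stood at 3.31, 2.68 and 3.19, chromosome 11 at 2.15, 1.77 and 2.16, and the 19 themselves between 0.744 and 1.14, 0.800 and 1.09, and 0.842 and 1.14.

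The unraised bins showed neither partner. With chromosome 6 they stood at 1.07 (1.01 to 1.14), 1.03 (0.975 to 1.09) and 1.07 (1.01 to 1.13), and with chromosome 11 at 1.07, 0.958 and 1.01. Over all 21 autosomes they ranged in the summed matrix from 0.833 to 1.09. Bin 127.5, enclosed by raised bins, had 1.12, 0.865 and 1.15 with chromosome 6, whereas the raised bins on its sides, 127.0 and 128.0, had 2.55 and 2.66 in untreated cells.

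All 7 raised bins shared both partners, with some spread. With chromosome 6, bin 126.0 was highest in every matrix at 3.29, 2.79 and 3.04, and the MYC and PVT1 bin was at 2.36, 2.06 and 2.40. With chromosome 11, bin 130.5 was at 2.11, 1.62 and 1.95 and bin 126.0 at 1.96, 1.77 and 2.07, and these were the 2 highest in every matrix. Bins 127.0 and 128.0 were the lowest in untreated and TPA cells, at 1.52 and 1.57 in untreated cells. No raised bin fell below 2.06 with chromosome 6 or below 1.34 with chromosome 11 in any matrix.

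**Figure D4:**
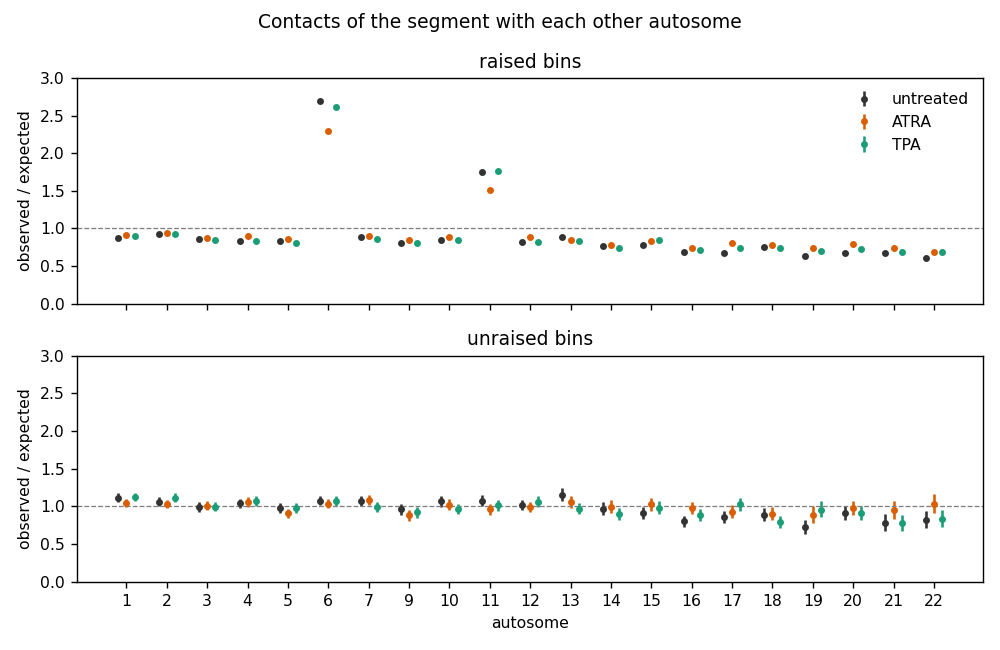
Observed over expected contacts of the raised bins (top) and the unraised bins (bottom) with each of the other 21 autosomes; 1 point per matrix with its 95% exact Poisson interval. Chromosomes 6 (2.29 to 2.70) and 11 (1.51 to 1.77) stand above the dashed line at 1 for the raised bins, and no comparable step is seen for the unraised bins.

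Single bins of other autosomes were then searched for contacts with the raised bins at 4 or more times expected and at least 20 contacts in the summed matrix. This held for 31 of 5069 bins, or 0.612%, with 23 on chromosome 6, 8 on chromosome 11 and 0 elsewhere. The highest bin elsewhere was on chromosome 2 at 131.0 Mb, with 1.58 times expected from 29 contacts. Adjacent bins merged into 9 stretches. At 10 times expected, in place of 4, 0 bins would have been found.

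The stretch with the most contacts lay on chromosome 6 from 116.0 to 123.5 Mb, in 15 bins. It held 3503, 3056 and 4108 contacts with the raised bins, 6.18 (5.97 to 6.38), 4.79 (4.62 to 4.96) and 6.44 (6.24 to 6.64) times expected, and 0.981 times with the unraised bins in the summed matrix. Its peak was a pair of bins. The bin at 118.5 Mb held 481, 366 and 558 contacts, at 9.73, 7.04 and 10.4 times expected, and the bin at 119.0 Mb held 452, 410 and 530, at 9.87, 7.28 and 9.53 times. The bin at 118.0 Mb followed with 7.96, 5.40 and 7.60 times.

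From this peak the ratio fell off unevenly to both sides. It was 1.54, 1.45 and 1.68 at 45 to 50 Mb and, farther away, 1.96, 2.00 and 2.27 at 35 to 40 Mb. Averages over 5 Mb stayed above 1 in all 3 matrices, the lowest being 1.21 at 25 to 30 Mb in ATRA cells. Single bins far from the peak reached lower values, such as 0.868 at 22.5 Mb in untreated cells. The 5 Mb before 118.5 Mb stood at 5.23, 4.04 and 5.39 and the 5 Mb from it on at 6.21, 4.85 and 6.56. The later window over the earlier one came to 1.19 (1.12 to 1.27), 1.20 (1.12 to 1.28) and 1.22 (1.15 to 1.29). The later window held both peak bins, with 481 and 452 of its 2513 contacts in untreated cells. These ratios therefore include the peak itself, and the sides without the peak bins were not compared. Near the start of the chromosome, from 0 to 5 Mb, the ratio was still 1.56, 1.30 and 1.51, and from 165 to 170 Mb it was 2.66, 2.04 and 2.52. Leaving out all partner stretches therefore lowered the value of the whole chromosome only to 2.56, 2.18 and 2.45. Other stretches of chromosome 6 were bins 108.5 (4.59, 4.18 and 4.03 times), 111.0 to 112.5 (5.17, 3.95 and 4.57), 113.5 to 114.5 (4.74, 3.14 and 4.69), 115.0 (3.86, 4.13 and 4.60) and 126.0 Mb (4.76, 3.95 and 4.37).

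On chromosome 11 the contacts began at a sharp edge. The stretch from 28.0 to 30.5 Mb, in 5 bins, held 829, 705 and 905 contacts with the raised bins, 5.66 (5.28 to 6.06), 4.35 (4.04 to 4.68) and 5.50 (5.15 to 5.87) times expected, and 0.974 times with the unraised bins in the summed matrix. The bin at 27.5 Mb had 22, 15 and 13 contacts, or 1.37, 0.778 and 0.714 times expected. The next bin, at 28.0 Mb, had 157 contacts in untreated and 153 in TPA cells and stood at 6.36, 4.51 and 5.33 times. The ratio thus rose within 2 neighbouring bins from about 1 to its upper range in all 3 matrices.

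The 2 sides of that edge differed over megabases. The 5 Mb before 28.0 Mb stood at 1.01, 0.873 and 0.874 from 128, 125 and 126 contacts, and the 5 Mb after it at 5.06, 3.63 and 4.65 from 1634, 1288 and 1635 contacts. After over before came to 4.99 (4.17 to 6.02), 4.16 (3.46 to 5.04) and 5.32 (4.44 to 6.43). The bins before the edge had lower coverage themselves, 0.374, 0.404 and 0.409 times the median on average against 0.940, 0.987 and 0.966 after it, and this is divided out of the ratios. All of chromosome 11 before 28.0 Mb stood at 0.828, 0.847 and 0.854. The position of the edge was chosen after seeing these values, so the contrast is a description.

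Beyond the edge the ratio declined unevenly along chromosome 11. It was 4.33, 2.89 and 3.81 at 30 to 35 Mb, 3.00, 2.75 and 3.09 at 45 to 50 Mb, 1.61, 1.54 and 1.72 at 60 to 65 Mb, 1.19, 1.51 and 1.31 at 65 to 70 Mb, again higher at 2.10, 1.93 and 1.97 at 75 to 80 Mb, and 1.15, 1.06 and 1.21 at 130 to 135 Mb. The bins at 28.5 Mb (7.17, 5.16 and 5.85 times) and 29.0 Mb (6.15, 5.32 and 6.29) were the highest of the chromosome in the summed matrix. Another 2 stretches passed the threshold, from 32.0 to 33.0 Mb with 5.34, 3.10 and 4.25 times and the bin at 36.0 Mb with 4.97, 3.25 and 4.41 times. Chromosome 6 had a peak with raised values on both sides, and chromosome 11 had a peak with raised values on 1 side.

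**Figure D5:**
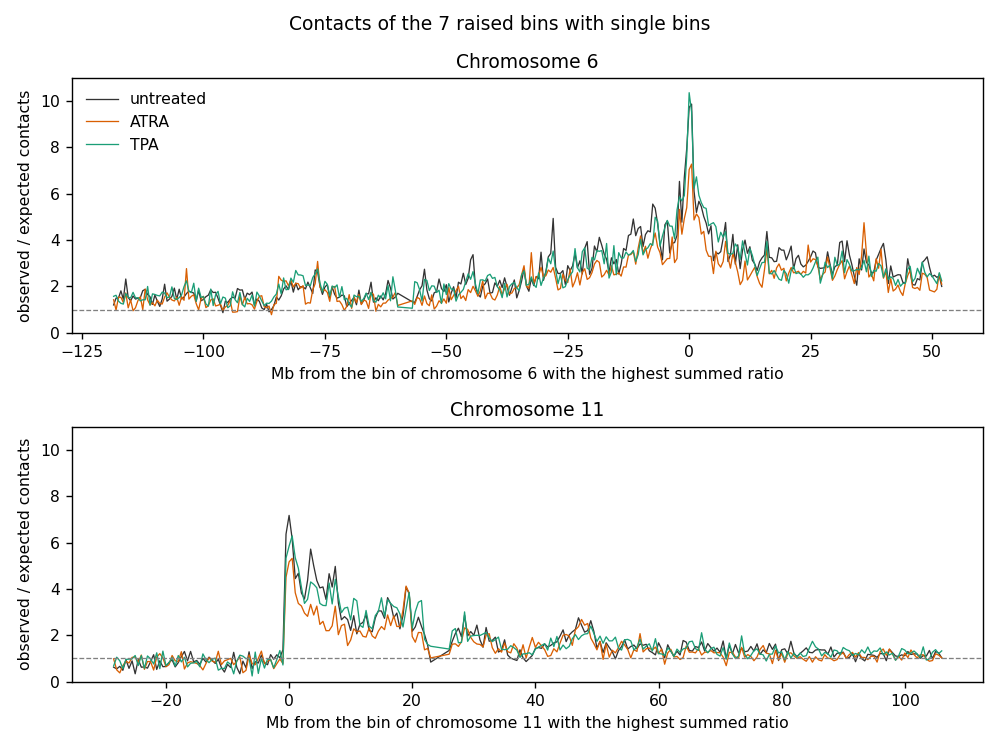
Observed over expected contacts of the 7 raised bins with single bins of chromosome 6 (top) and chromosome 11 (bottom), 1 line per matrix, against the distance in Mb from the bin with the highest ratio in the summed matrix; the dashed line marks 1. Chromosome 6 peaks at 7.04 to 10.4 and slopes unevenly on both sides, and chromosome 11 steps from 0.714 to 1.37 up to 4.51 to 6.36 within neighbouring bins and then declines unevenly.

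The raised bins mostly pointed to the same places. Bin 130.0 had its highest chromosome 6 partner at 118.5 Mb in all 3 matrices, with 160, 118 and 184 contacts at 13.8, 9.54 and 15.3 times expected. The MYC and PVT1 bin peaked at 119.0, 118.5 and 118.5 Mb with 37, 37 and 62 contacts, at 11.5, 9.55 and 15.4 times expected. Bin 130.5 peaked at 119.0 Mb in all 3. Peaks of the remaining bins moved between matrices. Bin 126.5 peaked at 117.5, 118.0 and 119.0 Mb, bin 127.0 at 118.0, 120.0 and 118.5 Mb and bin 128.0 at 119.0, 116.5 and 117.0 Mb. Bin 126.0 was the least fixed, with peaks at 116.5, 119.0 and 111.5 Mb.

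On chromosome 11 the highest partner lay at 28.0 to 29.5 Mb for bins 126.5, 127.0, 128.5 and 130.5 in every matrix. Bin 126.0 had it at 28.5, 33.0 and 28.0 Mb and bin 130.0 at 32.0, 28.5 and 29.5 Mb. The MYC and PVT1 bin had it at 28.0, 29.0 and 29.5 Mb, on only 14, 12 and 21 contacts. The POU5F1B bin at 128.0 instead had it at 36.0, 47.5 and 48.0 Mb, at 6.92, 5.73 and 5.56 times expected on 37, 27 and 29 contacts. Counts of this size give wide intervals, and a highest bin out of many is drawn upward by counting error.

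The largest partner stretches were also compared with each other, against the mean contact between chromosomes 6 and 11 and the coverage of their bins. Chromosome 6 from 116.0 to 123.5 Mb and chromosome 11 from 28.0 to 30.5 Mb shared 74, 62 and 81 contacts. That is 1.85 (1.45 to 2.33), 1.32 (1.01 to 1.69) and 1.65 (1.31 to 2.05) times expected. The intervals lay above 1 in all 3 matrices, narrowly so in ATRA cells, and the stretches had been found from their contacts with the raised bins. Each value was below those of either stretch with the raised bins. Those were taken against contacts with all other autosomes, so the 2 sets of values are not on the same scale.

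The bins with contacts most like those of the raised bins were all on chromosome 6. Likeness was the Pearson correlation of contact profiles over 4732 bins of the other chromosomes, leaving out chromosome 8 and the bin's own chromosome, in the summed matrix. The bins at 119.0, 127.5, 160.0, 118.5 and 130.5 Mb had 0.249, 0.223, 0.213, 0.211 and 0.210, and the median of 5069 bins was 0.00199. The points share libraries, bin coverage and the sparse counts of single bins, and correlations of this size are weak.

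In the treated matrices the coverage of the segment stayed close to that of untreated cells. Scaled to the total of each matrix, the raised bins together stood at 1.04 (1.04 to 1.05) times untreated in ATRA and 1.02 (1.02 to 1.03) in TPA cells. No bin of the segment moved past 1.1-fold in either comparison, raised (0 of 7) or unraised (0 of 6), while 44.6% of all bins did so in ATRA and 19.8% in TPA cells. The median of all bins was itself 1.06 in ATRA and 1.02 in TPA. The median raised bin was at 1.07 and 1.04, so the raised bins lay near the median of all bins. The MYC and PVT1 bin stood at 1.07 (1.05 to 1.10) and 1.07 (1.05 to 1.09). Both comparisons share the untreated matrix.

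Bin 126.0 Mb was the exception among the raised bins in ATRA cells. Its coverage was 0.933 (0.919 to 0.946) times untreated, when the other 6 raised bins lay between 1.04 and 1.08. In TPA cells it stood at 1.04 (1.03 to 1.06), within the range of the other raised bins, 0.986 to 1.07. Its contacts with chromosome 6 were 0.876 (0.843 to 0.910) times untreated in ATRA, and those of the other raised bins lay between 0.987 and 1.09. Of the unraised bins, 131.0 was also below untreated, at 0.945 (0.907 to 0.984) in ATRA and 0.973 (0.935 to 1.01) in TPA. With 1 ATRA library, whether the ATRA values belong to the library or the treatment cannot be told apart.

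Contacts between raised bins were fewer in both treated matrices. They stood at 0.815 (0.799 to 0.830) times untreated in ATRA and 0.900 (0.884 to 0.917) in TPA cells. In ATRA, 21 of 21 pairs were below 1, 20 of them with the interval below 1, and the median pair was at 0.816. In TPA, 17 of 21 pairs were below 1, 12 of them with the interval below 1, and the median was 0.914. Bin 126.0 with 127.0 was the lowest pair in each, at 0.568 (0.509 to 0.633) in ATRA and 0.687 (0.622 to 0.759) in TPA.

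Other short-range contacts on the chromosome were also fewer in the treated matrices. Pairs of the rest of chromosome 8 under 5 Mb apart stood at 0.721 (0.713 to 0.729) in ATRA and 0.854 (0.844 to 0.863) in TPA, lower than the pairs of raised bins. Contacts between all autosomes stood at 1.12 and 1.04. The part of this general shift in the values of the raised bins was not tested. Within single raised bins contacts stood at 0.852 (0.827 to 0.878) in ATRA and 0.995 (0.968 to 1.02) in TPA, and within bins of the rest of chromosome 8 at 0.718 and 0.868.

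The pair of POU5F1B with MYC and PVT1, 128.0 with 128.5 Mb, stood at 0.756 (0.656 to 0.871) in ATRA and 0.873 (0.764 to 0.997) in TPA. MYC and PVT1 with bin 130.0 stood at 0.824 (0.754 to 0.902) and 0.967 (0.889 to 1.05), and with 130.5 at 0.810 (0.713 to 0.918) and 0.912 (0.809 to 1.03). The MYC bin with all other raised bins came to 0.804 (0.765 to 0.845) in ATRA and 0.942 (0.900 to 0.987) in TPA.

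With chromosomes 6 and 11 the raised bins stood close to untreated cells when counts were scaled to matrix totals. Chromosome 6 stood at 0.996 (0.981 to 1.01) times untreated in ATRA and 1.04 (1.02 to 1.05) in TPA, and chromosome 11 at 0.978 (0.955 to 1.001) and 1.07 (1.05 to 1.10). With the other 19 autosomes the raised bins stood at 1.17 (1.16 to 1.18) and 1.07 (1.06 to 1.07). The contacts with chromosomes 6 and 11 in ATRA thus did not share the rise seen with the other autosomes. Scaled to contacts between chromosomes instead, chromosome 6 stood at 0.888 and 0.992, below 1 in both, and without bin 126.0 the ATRA value on the first scale was 1.02. For the MYC and PVT1 bin, chromosome 6 stood at 1.09 (1.02 to 1.16) in ATRA and 1.16 (1.09 to 1.23) in TPA, against 1.24 and 1.12 with the other 19 autosomes.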

How the data were processed

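The deposited values are contact counts, whole and not normalized, for all pairs of 500 kb bins of hg19 in 3 matrices, per the file headers. The authors used Bowtie for alignment, HiCUP for filtering and HOMER for the matrices, per the series' design text, and HOMER 4.7 is named in the submitters' processing notes. The filter settings were not given in these sources. Diagonal values were divided by 2, the upper triangle was used where 1 untreated pair was asymmetric, and bins off the autosomes and chromosome X (0.0513%, 0.101% and 0.0811% of untreated, ATRA and TPA contacts) were left out.

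Within chromosome 8 the expectation was the mean of chromosome 8 pairs outside the segment at the same distance. Where coverage was taken in, the summed contacts of those pairs were divided by the summed products of their coverages. The quotient was then multiplied by the coverage of both bins. Between chromosomes it was the product of the between-chromosome coverage of both sides, and partner bins needed 0.2 times the median coverage. Ratios of treated to untreated counts were scaled to matrix totals, with exact intervals. The code used Python 3.11.15, numpy 2.4.6 and scipy 1.17.1. Only the call of partner bins and the interval of a ratio of 2 counts were tested on simulated data. No model was fitted and no test was made, since each condition is 1 matrix.

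The members and lists were chosen with earlier results of these data known. The text names all 13 bins, the 3 highest and 3 lowest autosomes, all partner stretches, the highest partner bins and the 5 most alike bins. Planned lists of MYC network genes and of loci amplified in other cancers were not analysed here, since no annotation of hg19 was used.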

Additional observations from a re-analysis of the deposited data

How the results depend on the processing

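Each condition is a single matrix, so the alternatives show how much a value depends on the computation and not on replicates. No paired analysis was possible because the replicate numbers shared by untreated and TPA libraries are lost in the pooled matrices. Of 108 alternatives, 45 moved a value by less than its counting interval, 54 moved it further, 8 changed its side of 1 and 1 ended a call. Values are for untreated, ATRA and TPA cells. The median coverage of the raised bins was 9.85, 9.72 and 9.59 against the rest of chromosome 8 and 11.26, 11.02 and 11.06 from contacts between chromosomes. Contacts between raised bins came to 0.334, 0.367 and 0.365 times expected with the distance means of all autosomes and 0.278, 0.347 and 0.292 with between-chromosome coverage. Without division by coverage they came to 30.7, 35.4 and 33.5, which reverses the direction, as it does for raised with unraised bins (1.39, 1.65 and 1.56). The latter came to 0.148 in ATRA with all autosomes and to 0.122 in untreated and 0.136 in TPA cells with between-chromosome coverage. Contacts with the rest of chromosome 8 came to 0.284, 0.302 and 0.264 with all autosomes and to 0.231, 0.270 and 0.214 with between-chromosome coverage.

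Chromosome 6 stayed above 1 in every alternative, at 3.06, 2.72 and 2.99 with covered bins as the expectation, 2.56, 2.18 and 2.45 without the partner stretches and 3.31, 2.68 and 3.19 with the expectation from 19 autosomes, added after seeing the data. Chromosome 11 did so too, at 1.68, 1.47 and 1.70, then 1.68, 1.47 and 1.71, then 2.15, 1.77 and 2.16. At 10 times expected 0 partner bins were left of 31, and 31 remained at a minimum of 50 contacts. Treated over untreated, contacts between raised bins came to 0.726 in ATRA and 0.863 in TPA when scaled to contacts between chromosomes and to 0.777 and 0.880 when scaled to the rest of chromosome 8. With chromosome 6 they came to 0.888 and 0.992, which reverses the TPA value, and to 0.950 and 1.01. With chromosome 11 they came to 0.872 and 1.03, and to 0.933 and 1.05. Leaving out each raised bin in turn gave 0.796 to 0.836 in ATRA and 0.875 to 0.912 in TPA between raised bins, 0.988 to 1.02 and 1.03 to 1.05 with chromosome 6, and 0.963 to 0.992 and 1.06 to 1.10 with chromosome 11. The ATRA value with chromosome 6 passed 1 without bin 126.0, at 1.02. Single bin pairs between chromosomes hold few contacts, so depth limits the values of single partner bins.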
